A study of Mus musculus with 18 samples.

Results

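The genes described here are 8 transcription factors that carry the circadian clock's signal to other genes or feed back on the clock: Dbp, Tef, Hlf, Nfil3, Bhlhe40, Bhlhe41, Gm129 (now named Ciart) and Rora. They were taken by symbol from the 22609 genes listed in every library, and all 8 passed the filter on low counts in each organ. Messenger RNA was sequenced from wild-type C57BL/6J mice, a common inbred strain, in 3 organs: heart, kidney and liver. The mice ate a ketogenic diet, 90% of it fat, 9.7% protein and 0.3% carbohydrate, or standard chow, in each case for 21 days from 4 weeks of age. Each organ and diet had 3 libraries, which the labels call biological replicates, so that 18 libraries fell into 6 groups. The title of the series names senescence in several organs. The comparison made here is ketogenic against chow within each organ. The labels give neither the sex of the mice nor the hour at which tissue was collected, and they do not say whether the 3 organs came from the same mice. Transcripts of clock genes cycle over the day, so a difference of diet and a difference of hour between the groups cannot be told apart.

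The clock of mammalian cells is a transcriptional loop. BMAL1, the product of Arntl, pairs with CLOCK or NPAS2 and switches on genes through E-boxes, short DNA sites in their promoters, and PER, CRY and REV-ERB proteins then shut that drive down. DBP, TEF and HLF form the PAR bZIP family and activate genes through D-boxes, while NFIL3, also called E4BP4, represses through the same sites and cycles in antiphase to DBP in mouse liver. BHLHE40, BHLHE41 (DEC1 and DEC2) and CIART repress at E-boxes, and RORA activates Arntl and other genes through ROR elements, for which the REV-ERB repressors compete.

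Promoters of the members were searched for these 3 kinds of site, since most of the genes moved together in the libraries. RefSeq promoters of build GRCm38.p6, each with 250 bases before and 50 after a start site, matched 7 of the 8 members and gave 8 windows, with Tef having more than 1 start. The E-box CACGTG, searched on both strands (it reads the same on each), stood in the windows of 3 members. Counted from the start site, it began at -116, -58 and -44 in Gm129, at -153 in Bhlhe41 and at -127 and -138 in the Tef windows. Of all 32851 promoter windows, 7.15% hold this E-box. The D-box, searched on both strands as TTATGTAA or TTACGTAA, stood in no member's window, and 1.06% of all windows hold it. The ROR element, also searched on both strands, stood in no member's window, and 0.219% of all windows hold it. Sites outside the windows were not searched, so a window without a site does not mean a gene without it. Shown here are the windows of the members with an E-box (for Tef the downstream start) and, as one without, that of Dbp; capitals mark the E-boxes.
Gm129, chr3:95882179-95882478, minus strand: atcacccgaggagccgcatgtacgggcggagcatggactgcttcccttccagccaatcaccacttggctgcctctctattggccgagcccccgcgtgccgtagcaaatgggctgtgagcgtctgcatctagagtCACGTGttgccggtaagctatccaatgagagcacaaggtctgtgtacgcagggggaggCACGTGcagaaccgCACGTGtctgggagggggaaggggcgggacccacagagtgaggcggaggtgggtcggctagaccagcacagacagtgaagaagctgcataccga
Bhlhe41, chr6:145865371-145865670, minus strand: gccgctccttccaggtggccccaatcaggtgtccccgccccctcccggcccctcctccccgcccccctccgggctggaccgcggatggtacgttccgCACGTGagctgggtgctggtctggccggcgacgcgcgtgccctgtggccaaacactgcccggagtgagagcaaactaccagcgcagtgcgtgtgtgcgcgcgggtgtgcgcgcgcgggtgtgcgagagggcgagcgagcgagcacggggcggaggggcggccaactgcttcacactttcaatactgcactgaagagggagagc
Tef, chr15:81811164-81811463, plus strand: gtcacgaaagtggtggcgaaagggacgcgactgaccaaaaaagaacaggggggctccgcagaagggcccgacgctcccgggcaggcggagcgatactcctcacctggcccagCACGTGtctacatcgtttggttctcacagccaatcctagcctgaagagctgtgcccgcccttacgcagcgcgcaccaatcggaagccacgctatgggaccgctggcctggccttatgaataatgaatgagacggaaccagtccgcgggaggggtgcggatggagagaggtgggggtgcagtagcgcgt
Dbp, chr7:45704997-45705296, plus strand: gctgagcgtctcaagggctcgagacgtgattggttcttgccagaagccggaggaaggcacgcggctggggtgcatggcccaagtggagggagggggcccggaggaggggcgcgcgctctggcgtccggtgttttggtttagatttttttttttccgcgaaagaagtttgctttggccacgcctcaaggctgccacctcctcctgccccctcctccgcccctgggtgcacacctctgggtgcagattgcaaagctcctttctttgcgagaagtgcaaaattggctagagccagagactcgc

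Heart libraries held 16135276 to 22767878 estimated counts, kidney libraries 16173996 to 19923905 and liver libraries 18151967 to 23835383. Replicates 1 and 2 of the ketogenic heart group were nearly identical, a little above counting noise, as were replicates 1 and 2 of the ketogenic liver group (median chi-square over genes 0.666 and 0.698, against 1.23 to 4.19 in the other 16 pairs within a group). Means and SDs take each pair as 1 sample, which gives n = 2 for these groups. The tests use all 6 libraries of an organ, and their adjusted p-values understate the error if a pair shares its mouse. Marker genes of heart muscle, renal tubule and hepatocytes were each highest in their own organ. Chow heart replicate 3 held atrial markers at a summed 12088 CPM (counts scaled to the size of the library), against 40.8 to 98.1 CPM in ketogenic hearts and 65.1 and 132 CPM in the other chow hearts. Summed fibroblast markers were lower on the ketogenic diet in every organ: 3 of 5 fell in each, and 1 rose in liver, with sums of 1384 to 1536 CPM in ketogenic and 3041 to 4582 CPM in chow hearts, 366 to 572 CPM in ketogenic and 1279 to 2068 CPM in chow kidneys, and 222 to 253 CPM in ketogenic and 351 to 387 CPM in chow livers. In heart 6 of 6 macrophage markers fell, with sums of 258 to 259 CPM in ketogenic and 432 to 481 CPM in chow libraries, 5 of 7 erythroid markers fell, with sums of 1101 to 2571 CPM in ketogenic and 4538 to 6516 CPM in chow libraries, and 1 of 4 smooth muscle markers fell, with sums of 186 to 318 CPM in ketogenic and 606 to 681 CPM in chow libraries. In liver 4 of 6 hepatocyte markers fell, with sums of 69249 to 74503 CPM in ketogenic and 111971 to 120996 CPM in chow libraries. Of 6 adipocyte markers only 2 had enough counts to be tested in liver, and 1 of these rose. The 6 together summed to 61.1 to 122 CPM in ketogenic livers and 3.85 to 5.96 CPM in chow livers, with Lep and Retn at 0 in all. In kidney they summed to 367, 56.5 and 371 CPM in ketogenic libraries and 52.8, 149 and 151 CPM in chow libraries, so the diets overlapped. Smooth muscle markers were also lower by their sums in ketogenic kidneys (90.7 to 119.8 CPM, against 371, 159.6 and 130.2 CPM on chow), where 0 of 4 passed. In ketogenic livers they summed to 9.07, 10 and 8.47 CPM, against 11, 14.6 and 12.5 CPM on chow, and 2 of 3 tested fell. The part of these markers in the results on the 8 genes was not tested, and in whole tissue fewer cells of a type and less RNA per cell cannot be told apart.

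The output factors moved in a common pattern on the ketogenic diet, with the D-box activators and the E-box repressors Bhlhe41 and Gm129 up and the D-box repressor Nfil3 down in all 3 organs. In heart 6 members rose, 1 (Nfil3) fell and 1 (Bhlhe40) did not pass, by edgeR's quasi-likelihood test at an adjusted p under 0.05. Of all 13411 heart genes tested, 24.7% passed (12.5% higher and 12.2% lower). In kidney 7 rose and 1 (Nfil3) fell, where 9.05% of 14526 genes passed (3.59% higher and 5.45% lower). In liver 5 rose, 2 (Nfil3 and Rora) fell and 1 (Bhlhe40) did not pass, where 47.6% of 12947 genes passed (24.3% higher and 23.3% lower). The members' median log2 fold change, ketogenic over chow, was 1.00 in heart, 0.76 in kidney and 1.23 in liver, beside -0.03, 0.00 and 0.00 over all genes tested. No member's ketogenic and chow libraries overlapped in any organ; 44.7, 31.4 and 57.2% of all genes in heart, kidney and liver were likewise free of overlap. Scaled by total count, 23.4% of the called heart genes and 25.3% of the called kidney genes were higher, against 50.5 and 39.7%. The kidney counts leaned on single libraries: 4 members rose without chow replicate 1 or without chow replicate 2, and 0 fell when 1 of ketogenic replicates 2 and 3 or chow replicates 1 and 2 was left out. In liver 1 member fell without any 1 of the ketogenic replicates.

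**Figure D1:**
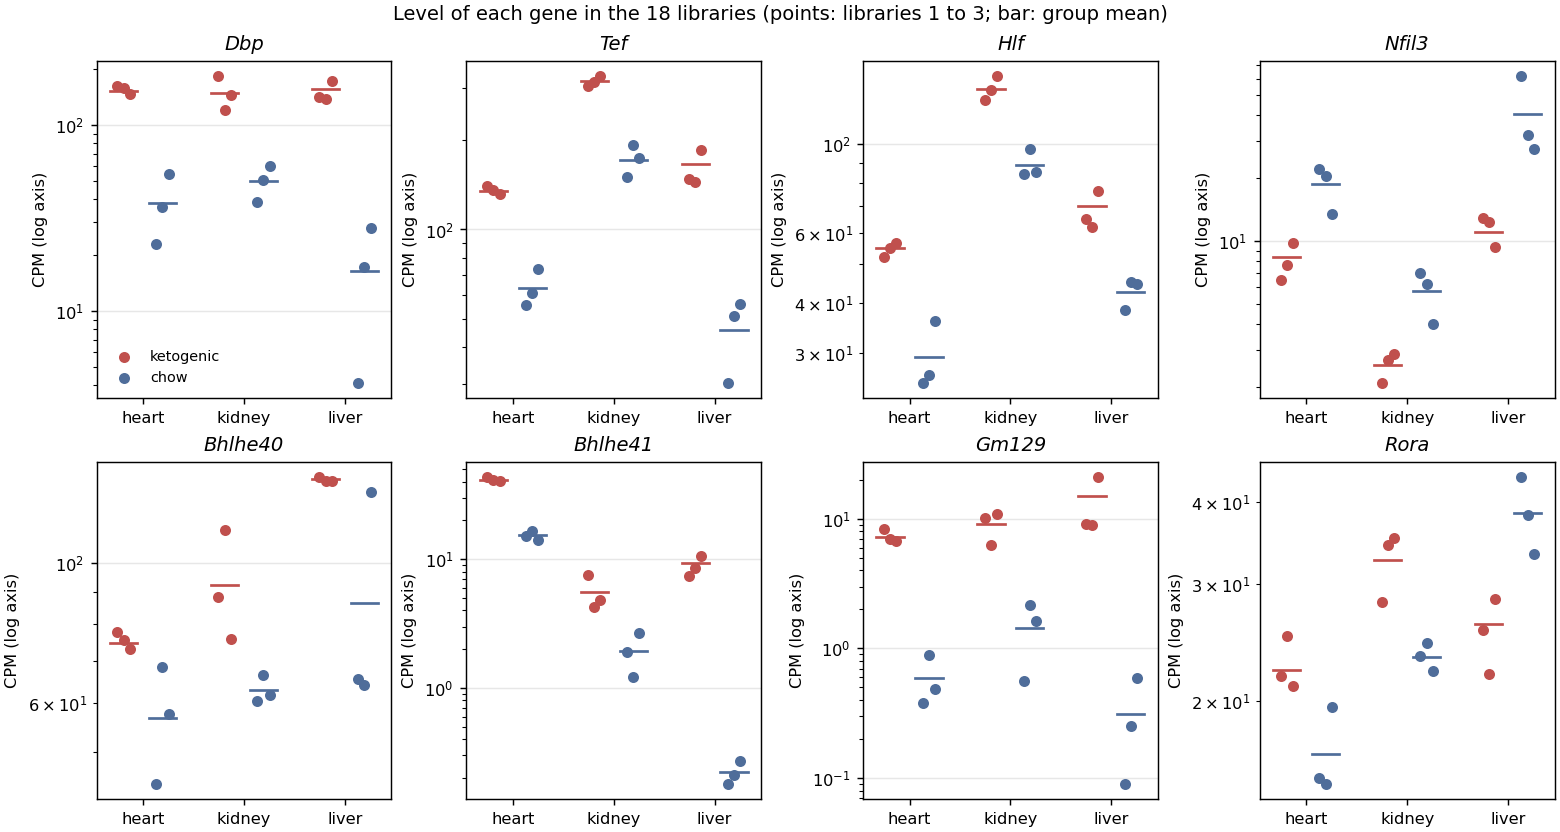
Level of each of the 8 genes in CPM (log axis) in each library, ketogenic left of chow within an organ; points are libraries 1 to 3 and bars are group means, with the near-identical ketogenic replicates 1 and 2 of heart and liver counted as 1. In every panel the ketogenic and chow points of an organ lie apart, with Nfil3 lower on the ketogenic diet in all 3 organs and Rora lower in liver.

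Dbp, the PAR bZIP gene with the widest daily swing in mouse tissues, lies on chromosome 7 (52960617 to 52965573, plus strand, mm9). Its level was 162, 158 and 147 CPM in ketogenic hearts, against 23.0, 36.2 and 54.9 CPM in chow hearts. Kidneys had 183, 121 and 145 CPM on the ketogenic diet and 38.8, 51.0 and 60.6 CPM on chow. Livers had 141, 138 and 172 CPM on the ketogenic diet and 4.13, 17.3 and 28.1 CPM on chow. Within each organ the lowest ketogenic library exceeded the highest chow library, 2.67-fold in heart, 2.00-fold in kidney and 4.92-fold in liver. The widest spread lay in the chow livers, whose highest value was 6.80 times the lowest. Dbp rose by 2.03 on the log2 scale in heart (SE 0.32, adjusted p = 0.0108), by 1.58 in kidney (SE 0.20, adjusted p = 0.00617) and by 3.19 in liver (SE 0.70, adjusted p = 0.0216). The liver call was lost with ketogenic replicates 1 and 2 summed (adjusted p = 0.0667) and without ketogenic replicate 1 (0.0705), 2 (0.0673) or 3 (0.0522) or chow replicate 2 (0.0716), at log2 fold changes of 3.08 to 3.25. Exons of Dbp share 539 bases with Sphk2 on the opposite strand, and the counting took strand into account.

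Tef, which encodes thyrotroph embryonic factor (chromosome 15, 81633103 to 81657293, plus strand), rose in all 3 organs. Ketogenic hearts had 140.1, 136 and 132 CPM, against 55.6, 60.9 and 73.4 CPM in chow hearts. Ketogenic kidneys had 306, 316 and 329 CPM, against 150.4, 193 and 174 CPM in chow kidneys. Ketogenic livers had 148, 145 and 185 CPM, against 30.4, 51.0 and 56.1 CPM in chow livers. The diets stood apart by 1.80-fold, 1.59-fold and 2.59-fold between their nearest libraries in heart, kidney and liver. Tef rose by 1.10 on the log2 scale in heart (SE 0.10, adjusted p = 0.000246), by 0.88 in kidney (SE 0.10, adjusted p = 0.00228) and by 1.80 in liver (SE 0.25, adjusted p = 0.00177), and no alternative or left-out library ended these calls.

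Hlf, which encodes hepatic leukemia factor (chromosome 11, 90197849 to 90252231, minus strand), rose least of the 3 activators. It was at 52.1, 54.9 and 56.7 CPM in ketogenic hearts and at 25.3, 26.5 and 36.0 CPM in chow hearts. It was at 129, 137 and 148 CPM in ketogenic kidneys and at 84.5, 97.3 and 85.2 CPM in chow kidneys. Ketogenic livers held 65.0, 62.0 and 76.5 CPM and chow livers 38.5, 45.1 and 44.6 CPM. The nearest libraries of the diets differed 1.45-fold in heart, 1.33-fold in kidney and 1.38-fold in liver. The log2 fold change was 0.89 in heart (SE 0.13, adjusted p = 0.00263), 0.63 in kidney (SE 0.09, adjusted p = 0.00359) and 0.67 in liver (SE 0.10, adjusted p = 0.000253), all calls kept under every alternative tried.

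Nfil3, the repressor at D-boxes (chromosome 13, 53062578 to 53076408, minus strand), moved the other way. Ketogenic hearts had 6.48, 7.72 and 9.76 CPM, against 22.2, 20.5 and 13.5 CPM in chow hearts. In kidney, where the gene was lowest, it had 2.1, 2.68 and 2.88 CPM on the ketogenic diet and 7.0, 6.20 and 4.00 CPM on chow. Ketogenic livers had 12.9, 12.4 and 9.33 CPM, against 61.5, 32.2 and 27.7 CPM in chow livers. Every chow library exceeded every ketogenic one of its organ, by at least 1.38-fold in heart, 1.39-fold in kidney and 2.15-fold in liver. Nfil3 fell by 1.23 on the log2 scale in heart (-1.23, SE 0.22, adjusted p = 0.00695), by 1.16 in kidney (-1.16, SE 0.25, adjusted p = 0.0248) and by 1.81 in liver (-1.81, SE 0.37, adjusted p = 0.0132). In kidney the call depended on single libraries, with an adjusted p of 0.0753 without ketogenic replicate 2, 0.0542 without ketogenic replicate 3, 0.117 without chow replicate 1 and 0.0763 without chow replicate 2, and it did not pass with all 18 libraries in 1 model (0.0616). In liver it did not pass when ketogenic replicate 1 (0.0555), 2 (0.0585) or 3 (0.0522) was left out, or with replicates 1 and 2 summed (0.0543).

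Activators and repressor were set against each other per length, as RPKM (CPM divided by exon length, scaled over all 18 libraries). The level of Dbp, Tef and Hlf added together was 42.2, 34.7 and 25.9 times that of Nfil3 in ketogenic hearts, against 2.75, 3.87 and 8.18 times in chow hearts. The ratio was 190.0, 124 and 129 in ketogenic kidneys, against 20.4, 29.2 and 44.9 in chow kidneys, and 19.9, 20.3 and 33.7 in ketogenic livers, against 0.520, 1.84 and 2.67 in chow livers. The diets did not overlap in any organ, and chow liver replicate 1 was the single library in which Nfil3 RNA exceeded the activators' sum. The makeup of the activators shifted as well: Dbp gave 68.8 to 70.4% of their summed RPKM in ketogenic hearts against 44.7 to 58.9% in chow hearts, 43.2 to 54.4% in ketogenic kidneys against 32.2 to 40.1% in chow kidneys, and 65.2 to 65.4% in ketogenic livers against 15.3 to 45.0% in chow livers. These ratios combine values already tested gene by gene and were given no test of their own.

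**Figure D2:**
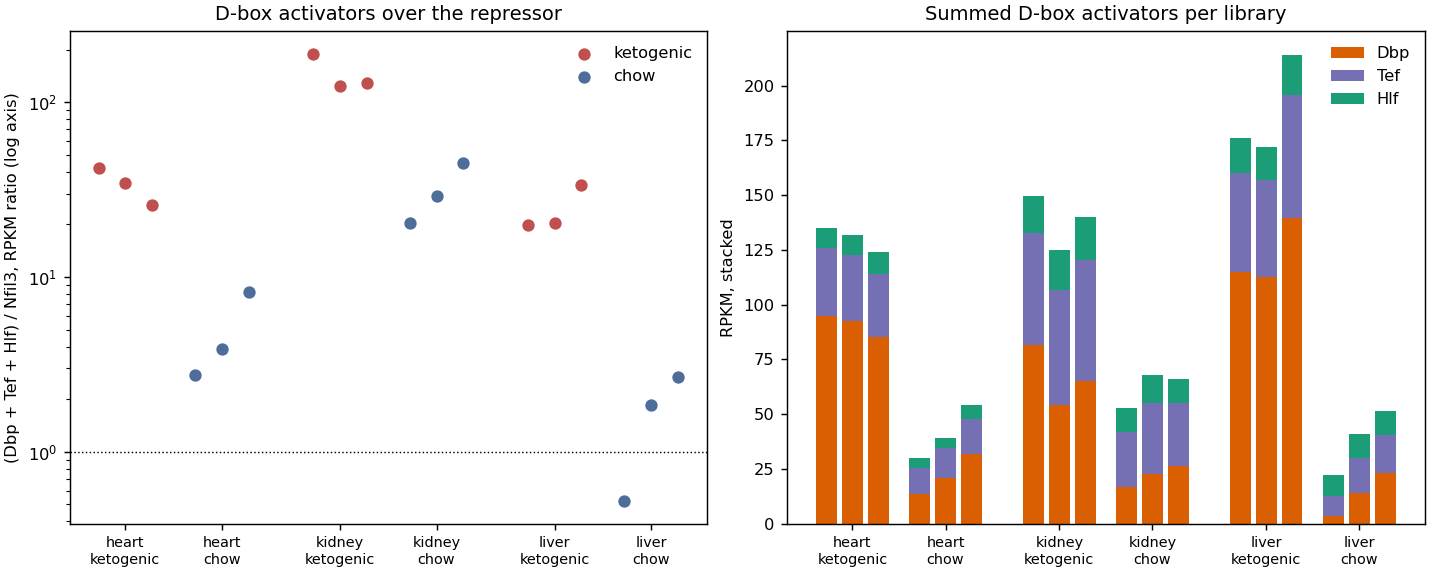
Left, ratio of the summed RPKM of Dbp, Tef and Hlf to that of Nfil3 in each library (log axis, dotted line at a ratio of 1). Right, stacked RPKM of Dbp, Tef and Hlf in each library; in both panels ketogenic libraries stand left of the chow libraries of their organ, with ratios of 19.9 to 190.0 on the ketogenic diet and 0.520 to 44.9 on chow over the 3 organs.

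Gm129, the E-box repressor whose promoter window held 3 E-boxes (chromosome 3, 95682428 to 95686151, minus strand), had the highest log2 fold change of the 8 genes in each organ, in liver within the SE of that of Bhlhe41. In heart it was at 8.32, 7.02 and 6.77 CPM on the ketogenic diet and at 0.382, 0.897 and 0.490 CPM on chow. In kidney it was at 10.2, 6.28 and 10.9 CPM on the ketogenic diet and at 0.565, 2.16 and 1.62 CPM on chow. Ketogenic livers had 9.17, 8.95 and 20.8 CPM, from counts of 184, 170 and 385, against 0.0907, 0.252 and 0.587 CPM, from counts of 2, 6 and 13, in chow livers. The chow values rest on few counts, yet the lowest ketogenic library exceeded the highest chow one 7.54-fold in heart, 2.91-fold in kidney and 15.3-fold in liver. Its log2 fold change was 3.65 in heart (SE 0.29, adjusted p = 0.000142), 2.65 in kidney (SE 0.42, adjusted p = 0.0101) and 5.36 in liver (SE 0.64, adjusted p = 0.00111), and no alternative ended these calls.

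Bhlhe41, which encodes the repressor DEC2 (chromosome 6, 145811257 to 145813860, minus strand), had its steepest rise in liver. Ketogenic livers had 7.43, 8.58 and 10.6 CPM, from counts of 149, 163 and 196, against 0.181, 0.210 and 0.271 CPM, from counts of 4, 5 and 6, in chow livers. Ketogenic hearts had 43.1, 40.9 and 40.5 CPM, against 15.1, 16.6 and 14.1 CPM in chow hearts. Ketogenic kidneys had 7.51, 4.25 and 4.80 CPM, against 1.92, 1.22 and 2.65 CPM in chow kidneys. The diets stood apart 27.4-fold between their nearest libraries in liver, 2.44-fold in heart and 1.60-fold in kidney. The log2 fold change was 5.29 in liver (SE 0.26, adjusted p = 2.36e-07), 1.44 in heart (SE 0.08, adjusted p = 4.78e-05) and 1.51 in kidney (SE 0.33, adjusted p = 0.0240). In kidney it no longer passed when ketogenic replicate 3 (adjusted p = 0.0512), chow replicate 1 (0.116) or chow replicate 2 (0.0684) was left out.

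Bhlhe40, which encodes the related repressor DEC1 (chromosome 6, 108610623 to 108616919, plus strand), was higher on the ketogenic diet but passed only in kidney. Its level was 77.7, 75.5 and 73.1 CPM in ketogenic hearts and 44.6, 68.4 and 57.5 CPM in chow hearts. Ketogenic kidneys had 88.3, 113 and 75.9 CPM and chow kidneys 60.3, 66.5 and 61.8 CPM. Ketogenic livers had 137, 135 and 135 CPM, and chow livers 65.4, 64.0 and 130.1 CPM. The diets did not overlap, but their nearest libraries differed by 1.07-fold in heart, 1.14-fold in kidney and 1.04-fold in liver, and in liver chow replicate 3 lay close to the ketogenic level. The log2 fold change was 0.41 in heart (SE 0.14, adjusted p = 0.0695), 0.55 in kidney (SE 0.13, adjusted p = 0.0404) and 0.65 in liver (SE 0.31, adjusted p = 0.149). The heart difference passed without chow replicate 2 (0.58, adjusted p = 0.0159) and by DESeq2 (0.0208), and the liver difference passed without chow replicate 3 (1.07, adjusted p = 1.09e-05), by limma-voom (0.0240) and with all 18 libraries in 1 model (0.0355). The kidney difference did not pass when ketogenic replicate 2 (0.0821) or chow replicate 1 (0.170), 2 (0.0872) or 3 (0.144) was left out, under total count scaling (0.0605) and with all 18 libraries in 1 model (0.123). Exons of Bhlhe40 share 118 bases with 0610040F04Rik on the opposite strand.

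**Figure D3:**
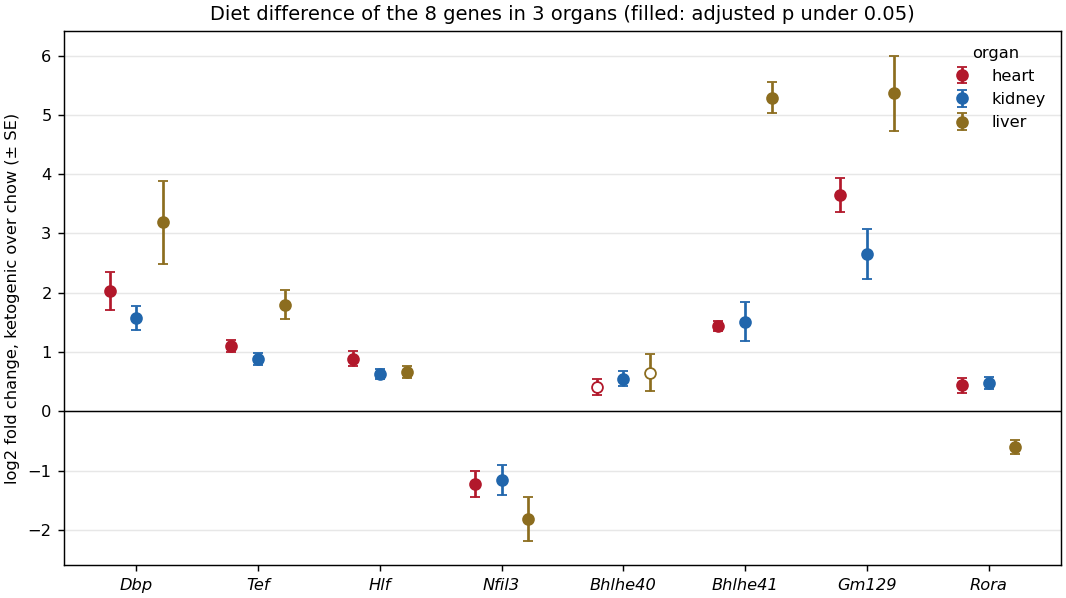
Log2 fold change, ketogenic over chow, of each gene in heart, kidney and liver with its SE; filled points passed edgeR's quasi-likelihood test at an adjusted p under 0.05 and open points did not. Bhlhe41 and Gm129 in liver lie highest, at 5.29 and 5.36, and Rora lies above 0 in heart and kidney and below 0 in liver.

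Rora, the activator at ROR elements (chromosome 9, 68501609 to 69226835, plus strand), was the member whose direction differed between organs. Ketogenic livers had 25.6, 22.0 and 28.5 CPM, against 43.5, 38.2 and 33.3 CPM in chow livers. Ketogenic hearts had 21.8, 25.1 and 21.1 CPM, against 15.3, 15.0 and 19.6 CPM in chow hearts, and ketogenic kidneys had 28.2, 34.4 and 35.3 CPM, against 23.4, 24.5 and 22.2 CPM in chow kidneys. Rora fell by 0.60 on the log2 scale in liver (-0.60, SE 0.12, adjusted p = 0.00181), a call that every alternative kept. It rose by 0.44 in heart (SE 0.13, adjusted p = 0.0335) and by 0.48 in kidney (SE 0.10, adjusted p = 0.0221), and these small rises were less secure. In heart it did not pass when ketogenic replicate 1 (adjusted p = 0.0859), 2 (0.139) or 3 (0.0582) or chow replicate 1 (0.0955) or 2 (0.0887) was left out, with replicates 1 and 2 summed (0.100) and under total count scaling (0.132). In kidney the rise did not pass when ketogenic replicate 2 (0.0882) or 3 (0.0762) or chow replicate 1 (0.0986), 2 (0.0505) or 3 (0.0992) was left out.

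**Figure D4:**
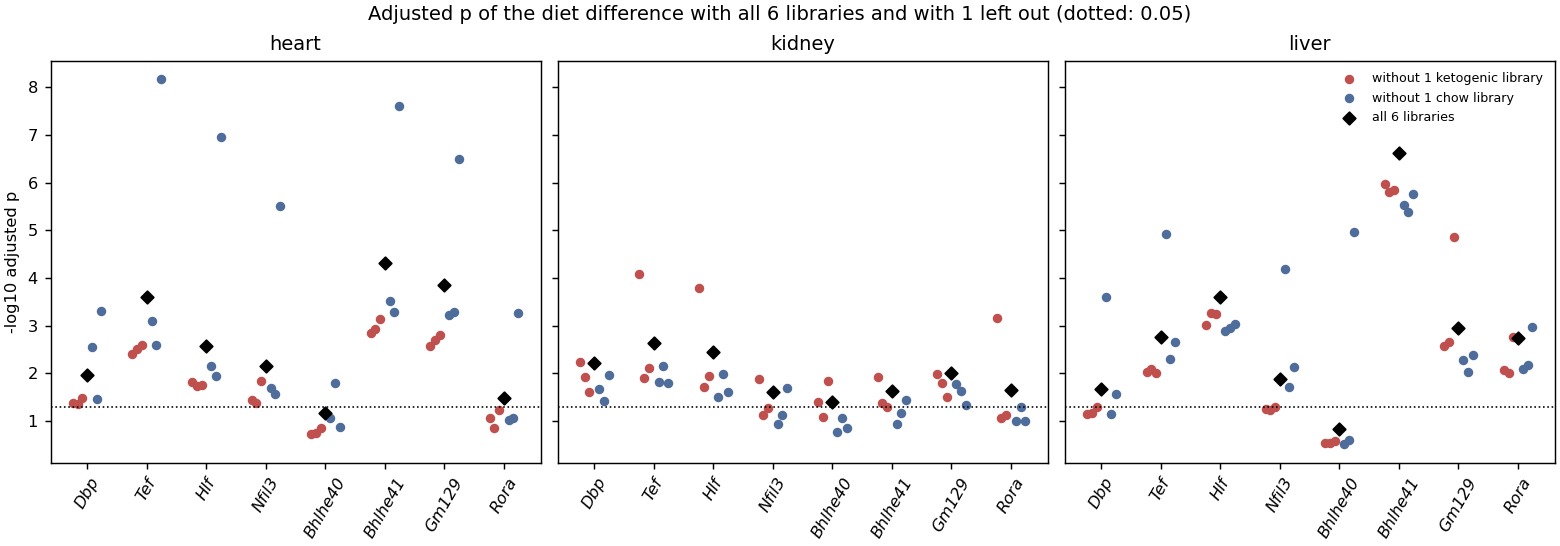
Adjusted p of the diet difference of each gene (-log10, so higher is smaller) with all 6 libraries of an organ (diamonds) and with 1 ketogenic or 1 chow library left out (points); the dotted line marks 0.05. Tef, Hlf and Gm129 stay above the line in all 3 organs, while Bhlhe40 in all 3, Rora in heart and kidney, Nfil3 in kidney and liver, Bhlhe41 in kidney and Dbp in liver have points on both sides of it.

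The diet effects were next compared between organs, in 1 edgeR model of all 18 libraries over 15495 genes. Between heart and kidney 0 of the 8 members differed, where 5.43% of all genes did; the lowest unadjusted p was 0.146, for Hlf, and 0 passed in any of 24 alternatives. Between heart and liver 3 members differed, where 32.7% of all genes did. The heart effect was the smaller for Bhlhe41 (-3.82, SE 0.39, adjusted p = 2.32e-06) and for Tef (-0.66, SE 0.24, adjusted p = 0.0439), and the higher for Rora (1.07, SE 0.18, adjusted p = 0.000275), all on the log2 scale. Between kidney and liver 4 differed, where 29.2% of all genes did: Bhlhe41 (-3.74, SE 0.43, adjusted p = 1.06e-05), Gm129 (-2.68, SE 0.74, adjusted p = 0.0122), Tef (-0.88, SE 0.24, adjusted p = 0.0110) and Rora (1.12, SE 0.18, adjusted p = 0.000226), each kidney minus liver. The Tef difference between heart and liver was lost in 16 of 24 alternatives, up to an adjusted p of 0.126 without ketogenic liver replicate 3, and the Gm129 difference between kidney and liver was lost by limma-voom (0.0609), while the Bhlhe41 and Rora differences passed in all 24. For Dbp the effect was lower than in liver in heart (-1.13, SE 0.64, adjusted p = 0.199) and in kidney (-1.57, SE 0.64, adjusted p = 0.0827), and neither passed; without chow liver replicate 3 they were -1.72 (0.0469) and -2.17 (0.0183).

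Levels on chow also differed between organs, as did those of 73.8, 78.2 and 76.4% of all genes between heart and kidney, heart and liver, and kidney and liver. Of the 8 members, 4, 5 and 5 differed in these pairs. Bhlhe41 was highest in heart, at 10.5 ± 0.878 RPKM in chow hearts, 1.00 ± 0.363 RPKM in chow kidneys and 0.215 ± 0.0443 RPKM in chow livers (SD, n = 3 each), and every pair differed (log2 difference 3.38 heart minus kidney, 5.58 heart minus liver and 2.20 kidney minus liver; highest adjusted p = 5.94e-05). On the ketogenic diet it was at 28.5 ± 0.797 RPKM in hearts (n = 2), 2.90 ± 0.914 RPKM in kidneys (n = 3) and 8.88 ± 1.69 RPKM in livers (n = 2), so that liver and kidney changed places; that order was not tested. Nfil3 was highest in chow livers, at 28.1 ± 12.7 RPKM, then at 9.20 ± 2.28 RPKM in chow hearts and 2.13 ± 0.580 RPKM in chow kidneys, and again every pair differed (highest adjusted p = 6.38e-05). Rora was at 32.3 ± 4.33 RPKM in chow livers, above 10.5 ± 0.626 RPKM in chow kidneys and 9.89 ± 1.49 RPKM in chow hearts, and heart and kidney did not differ beyond their spread (adjusted p = 0.592). Bhlhe40 was likewise highest in liver, at 38.4 ± 16.8 RPKM in chow livers against 17.8 ± 3.74 RPKM in chow hearts and 14.9 ± 0.937 RPKM in chow kidneys.

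Among the D-box activators on chow, Tef was at 28.6 ± 3.81 RPKM in kidneys, 14.2 ± 4.22 RPKM in livers and 13.9 ± 1.95 RPKM in hearts, and heart and liver did not differ beyond their spread (adjusted p = 0.862). Hlf was at 11.6 ± 1.08 RPKM in kidneys and 10.4 ± 0.898 RPKM in livers, which did not differ beyond their spread (adjusted p = 0.231), and at 5.05 ± 0.995 RPKM in hearts. Dbp was at 22.1 ± 9.25 RPKM in hearts, 22.1 ± 4.79 RPKM in kidneys and 13.6 ± 9.87 RPKM in livers, and Gm129 at 0.770 ± 0.437 RPKM in kidneys, 0.413 ± 0.191 RPKM in hearts and 0.307 ± 0.251 RPKM in livers (SD, n = 3 each). No pair of organs passed for these 2 genes, although some single alternatives called Dbp or Gm129 between liver and another organ, and Gm129 passed between heart and kidney without chow kidney replicate 1 (-1.30, adjusted p = 0.0443). Scaled by total count, the median log2 difference of all genes moved to -0.44 heart minus kidney, 0.62 heart minus liver and 1.07 kidney minus liver, from -0.05, 0.05 and 0.11, and Tef then stood higher in heart than in liver (0.53, adjusted p = 0.0176). Under that scaling edgeR also called Rora heart minus kidney (-0.46, adjusted p = 0.00370) and Hlf kidney minus liver (1.11, adjusted p = 2.81e-07). Bhlhe40 kidney minus liver then no longer passed (-0.42, adjusted p = 0.110).

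The chow libraries of an organ differed among themselves in a repeated way for several of the genes. Replicate 1 had the lowest chow level of Dbp, Tef, Hlf and Gm129 and the highest of Nfil3 in each of the 3 organs. Arntl, encoding the partner of CLOCK, was also highest in chow replicate 1, at 29.7 CPM in heart, 18.1 CPM in kidney and 36.5 CPM in liver, against 23.0 and 21.6, 15.6 and 14.4, and 25.6 and 22.0 CPM in the other chow libraries of those organs. Other members did not repeat this order. Bhlhe40 had its lowest chow level in replicate 1 in heart and kidney but not in liver, Bhlhe41 only in liver, and Rora in no organ. Whether samples with the same number share a mouse is not given in the labels.

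Genes of the core loop and of other lists were counted in the same way, and each count is to be read against the 24.7% of heart, 9.05% of kidney and 47.6% of liver genes that passed. Of 15 core loop genes tested in heart, 7 rose, 2 fell and 6 did not pass (median log2 fold change 0.27); in kidney 6 rose, 2 fell and 7 did not pass (median 0.13); of 14 tested in liver 4 rose, 5 fell and 5 did not pass (median 0.09). Arntl had 5.85, 5.13 and 4.88 CPM in ketogenic hearts against 29.7, 23.0 and 21.6 CPM in chow hearts, and its log2 fold change was -2.22 in heart (adjusted p = 6.78e-05), -1.68 in kidney (adjusted p = 0.000916) and -3.93 in liver (adjusted p = 1.87e-06). Npas2, whose product can replace CLOCK, fell likewise (-1.37, -1.52 and -4.36 in heart, kidney and liver; adjusted p = 0.000542, 0.00238 and 3.29e-06). Clock itself fell in liver (-0.73, adjusted p = 1.99e-05) and was at -0.21 in heart and -0.09 in kidney (adjusted p = 0.0623 and 0.511). The repressor gene Per2 rose in each organ (2.39, 1.56 and 2.30; adjusted p = 0.00891, 0.00291 and 1.18e-06), and Nr1d2, which encodes REV-ERB beta, rose in heart, kidney and liver (0.79, 0.48 and 1.48; adjusted p = 0.000383, 0.0224 and 2.92e-05). Nr1d1, which encodes REV-ERB alpha, rose in heart and kidney (0.60 and 0.67; adjusted p = 0.0107 and 0.00467) and was at -0.12 in liver (adjusted p = 0.337). Cry1 fell in liver (-0.86, adjusted p = 0.00570) and did not pass in the other organs. RefSeq promoter windows matched 11 of the 15 core genes; an E-box stood in those of Per1 and Cry1, a D-box in that of Per3 and a ROR element in 1 window of Arntl.

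Genes described in mice as targets of the PAR bZIP factors were counted next. Of 5 tested in heart 2 rose and 3 did not pass (median log2 fold change 0.33), of 7 in kidney 5 rose and 2 did not pass (median 0.76), and of 11 in liver 6 rose, 3 fell and 2 did not pass (median 0.67). Usp2, which encodes a ubiquitin protease, had 33.9, 37.5 and 67.1 CPM in ketogenic livers against 2.22, 2.43 and 4.87 CPM in chow livers, a log2 fold change of 3.86 (SE 0.46, adjusted p = 0.00193), and it rose in heart (1.12, adjusted p = 0.000130) and kidney (0.72, adjusted p = 0.0278). Alas1, the first enzyme of heme synthesis, rose in liver (1.89, adjusted p = 0.00711) and kidney (0.76, adjusted p = 0.00218) and was at -0.06 in heart (adjusted p = 0.729). Por, the electron donor of cytochromes P450, and Nr1i3, the nuclear receptor CAR, rose in liver (0.67 and 1.05; adjusted p = 0.000386 and 0.000505). Pdxk, a kinase of vitamin B6, fell in liver (-0.52, adjusted p = 0.00207) and rose in kidney (0.57, adjusted p = 0.0147). The cytochrome P450 gene Cyp2b10 also fell in liver (-4.06, adjusted p = 0.0250). Cyp2a4, a steroid hydroxylase, had 323, 402 and 307 CPM in ketogenic kidneys against 15.8, 8.59 and 8.01 CPM in chow kidneys, and 0.499, 0.421 and 1.73 CPM in ketogenic livers against 83.7, 149 and 44.4 CPM in chow livers. Cyp2a5 beside it, nearly the same in sequence, rose in kidney (3.20, adjusted p = 0.000213) and did not pass in liver (0.80, adjusted p = 0.0828). It had 383, 398 and 709.9 CPM in ketogenic livers against 224, 297 and 334 CPM in chow livers. Reads of either gene can be counted for the other, and how much this adds to their changes was not tested.

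Of 9 genes described in mice as RORA targets, 4 of which (Arntl, Npas2, Cry1 and Nr1d1) also stand in the core loop, 5 were tested in heart, 7 in kidney and all in liver. In liver, where Rora fell, 4 rose, 4 fell and 1 did not pass (median log2 fold change -0.12). The oxysterol hydroxylase gene Cyp7b1 rose in liver (2.61, adjusted p = 0.00613) and kidney (3.05, adjusted p = 0.00298), Cyp8b1, an enzyme of bile acid synthesis, rose in liver (0.96, adjusted p = 8.80e-06), and G6pc, the last enzyme of glucose release, fell in liver (-1.45, adjusted p = 0.00296). In heart 1 rose, 2 fell and 2 did not pass (median -0.81), and in kidney 2 rose, 3 fell and 2 did not pass (median 0.13).

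Of 13 further transcripts known to cycle in many mouse organs, Usp2 and Por among them again, 5 rose and 4 fell in heart (median log2 fold change 0.32), 4 rose and 2 fell in kidney (0.35), and 4 rose and 4 fell in liver (0.02). Wee1, a kinase that holds back mitosis, rose in heart (0.96, adjusted p = 0.000382) and liver (1.84, adjusted p = 2.17e-06), and Nampt, the rate-limiting enzyme of NAD salvage, rose in heart (0.72, adjusted p = 0.00264) and liver (1.59, adjusted p = 2.36e-07). Neither passed in kidney (0.35 and 0.29; adjusted p = 0.0767 and 0.132). Dtx4 fell in heart, kidney and liver (-0.45, -0.92 and -1.54; adjusted p = 0.0321, 0.00238 and 3.72e-06), as did Cdkn1a, which encodes the cell cycle inhibitor p21 (-1.36, -1.11 and -2.52; adjusted p = 0.00685, 0.0187 and 0.000627). Of 10 related bZIP and bHLH factors outside the clock, 0 passed in heart by edgeR (3 at an unadjusted p under 0.05; 1 higher and 1 lower by DESeq2, 0 by limma-voom), with a median of -0.16. In kidney 3 of 10 rose (median 0.15) and in liver 1 of 9, Cebpd (0.92, adjusted p = 0.00271; median 0.30).

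**Figure D5:**
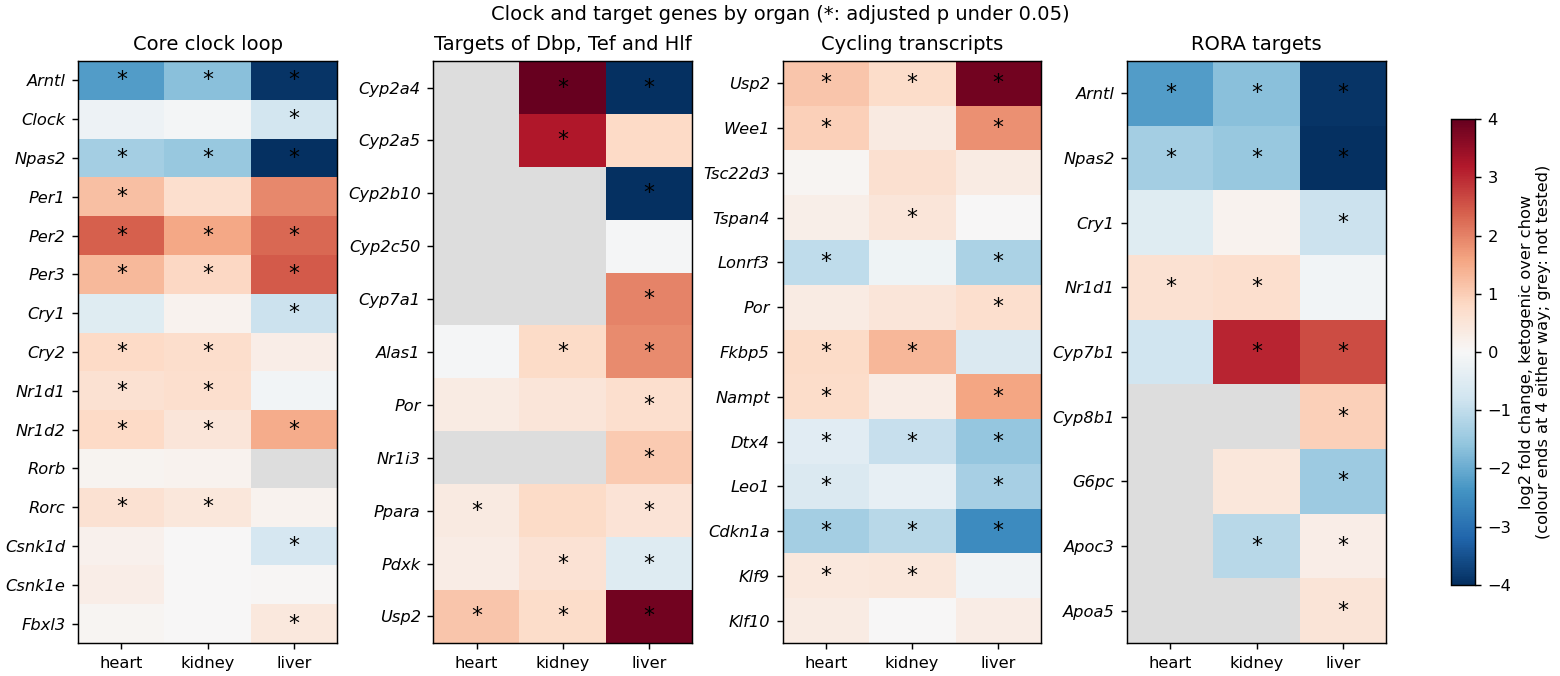
Log2 fold change, ketogenic over chow, of the genes of 4 lists in heart, kidney and liver (red higher and blue lower on the ketogenic diet; stars mark an adjusted p under 0.05 by edgeR; grey, not tested; colours end at 4 either way). Arntl and Npas2 are blue and Per2 and Usp2 red in all 3 organs, with the strongest colours of Arntl, Npas2 and Usp2 in liver.

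Genes with the diet pattern most like that of a member were ranked over 8507 genes by the root mean square difference of their 3 log2 fold changes, 1 per organ. Closest to Dbp were Per2 (0.555), Per3 (0.738) and Usp2 (0.819). Closest to Gm129 were Dbp (1.68), Per2 (2.01) and Usp2 (2.03), and closest to Bhlhe41 were Usp2 (0.961), Snora74a (1.17) and Osbpl3 (1.24). Genes near Tef were Per1 (0.150), Cd36 (0.210) and H2-Aa (0.226). Per1 itself did not pass by edgeR in kidney or liver (adjusted p = 0.306 and 0.0993), nor did Cd36 in kidney (0.149). Near Hlf were Acadl (0.0969), Acads (0.125) and Cpt1a (0.126), and near Nfil3 were Tacc3 (0.0737), Ncapg2 (0.127) and Col5a1 (0.132). Closest to Bhlhe40 was Gpt2 (0.0364), and closest to Rora was Zcchc2 (0.0579), whose log2 fold changes were 0.40 in heart, 0.45 in kidney and -0.51 in liver. With 3 values per gene, small distances are common for small effects and serve only as a description.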

How the data were processed

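The deposited values are estimated counts per gene, which need not be whole. Per the file headers, the authors counted read pairs on exons of mm9 with featureCounts, by strand (setting 2), with a minimum mapping quality of 2, giving fractions to reads with several places or genes. Per the submitters' processing notes, HISAT2 2.1.0 and featureCounts 1.5.0 were used along with bcl2fastq and SAMtools. Per the labels' protocols, libraries were stranded mRNA libraries. Exon lengths come from the deposited files.

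Counts were rounded, which changed a library's total by at most 0.00087%. For each organ, genes kept by filterByExpr were scaled by TMM and tested between diets with edgeR 4.0.16 (quasi-likelihood, robust, R 4.3.3), Benjamini-Hochberg adjusted over all genes tested; an SE is the log2 fold change over the square root of the F statistic. Differences between organs, and chow levels, are contrasts in 1 model of 18 libraries. CPM are scaled within an organ. RPKM were used between genes and organs where TPM had been planned, so that 1 scaling served all 18 libraries. Alternatives were DESeq2 1.42.0, limma-voom (limma 3.58.1), RLE and total count scaling, no filter, a filter of 1 CPM in 3 libraries, 1 model of all libraries, a block for the replicate number, near-identical libraries summed, and each library left out.

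The members and lists were chosen with earlier results of these data known. The text names all members and core loop genes and up to 6 genes of another list per organ with the lowest adjusted p; Alas1, Cyp2b10, Cyp7b1 and Cdkn1a in liver, Dtx4 in heart, and values in organs where a named gene did not rank or pass were added after the values were seen. For genes of like pattern, those with an average log2 CPM of at least 2 were compared and up to 3 per member named. The chi-square check of replicates used genes with at least 20 counts. The edgeR fits were tested on simulated counts. With 3 libraries a group, intervals cover the spread between these libraries.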

Additional observations from a re-analysis of the deposited data

Results flagged for a closer look

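The diet effect differed between organs, by a test of the difference itself in 1 edgeR model of all 18 libraries, for 4 of the 8 genes. Of all genes tested, 32.7% differed between heart and liver, 29.2% between kidney and liver and 5.43% between heart and kidney. All differences are of log2 fold changes. Bhlhe41 rose less in heart than in liver (-3.82, adjusted p = 2.32e-06) and less in kidney than in liver (-3.74, adjusted p = 1.06e-05). Gm129 rose less in kidney than in liver (-2.68, adjusted p = 0.0122). Tef rose less in heart than in liver (-0.66, adjusted p = 0.0439) and less in kidney than in liver (-0.88, adjusted p = 0.0110). The Tef difference between heart and liver was lost in 16 of 24 alternatives, and the Gm129 difference by limma-voom (adjusted p = 0.0609). Rora stood higher in heart and kidney and lower in liver, a difference of 1.07 for heart minus liver (adjusted p = 0.000275) and 1.12 for kidney minus liver (adjusted p = 0.000226). In liver Bhlhe41 had 149, 163 and 196 counts in ketogenic libraries against 4, 5 and 6 in chow libraries, and Gm129 had 184, 170 and 385 counts in ketogenic libraries against 2, 6 and 13 in chow libraries. With 3 libraries a group, single libraries were not tested for standing apart.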

How the results depend on the processing

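No diet effect of a member changed sign in any of 352 combinations of member, organ and alternative; 39 lost the call and 5 gained it, as named beside the genes. Tef, Hlf and Gm129 kept their call in all 3 organs and Bhlhe41 in heart and liver. Leaving out 1 library gave 1583 to 4689 called genes in heart (1604 without ketogenic replicate 1, 1583 without ketogenic replicate 2, 4689 without chow replicate 3). Chow heart replicate 3 was the library high in atrial markers, and their part in this count was not tested. Leaving out 1 library gave 412 to 3402 in kidney (3402 without ketogenic replicate 1, 565 without 2, 672 without 3, and 412, 789 and 599 without chow replicates 1, 2 and 3) and 4663 to 6472 in liver. Kidney members that rose then numbered 4 to 7 and those that fell 0 to 1, and liver members that fell 1 to 2. With ketogenic replicates 1 and 2 summed, 1642 heart genes were called and 1 liver member fell. With all 18 libraries in 1 model 0 kidney members fell.

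Deviations of same-numbered ketogenic and chow samples correlated at 0.0299, 0.0396 and 0.104 in heart. The correlations were -0.142, 0.0467 and -0.116 in kidney and 0.0618, 0.0336 and 0.0903 in liver. Unlike-numbered samples ran from -0.0888 to 0.0759 in heart, -0.316 to 0.350 in kidney and -0.0631 to 0.0216 in liver. In liver the same-numbered values were thus the higher, though small. The labels give no pairing, and the numbers were not taken to pair samples. With the replicate number as a block, 810 kidney genes and 2732 heart genes were called, and 0 kidney members fell. The block ended the calls of Rora in heart (adjusted p = 0.0538), Nfil3 and Rora in kidney (0.0769 and 0.0514) and Dbp in liver (0.0541).

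For differences of the diet effect, heart minus kidney called 468 to 1158 genes with 1 library left out and 392 with the pairs summed. Heart minus liver had 1 to 2 members higher and 1 to 4 lower with 1 library left out, and 1 lower with RLE size factors, no filter or the pairs summed. Signs turned only where the difference was near 0. For heart minus kidney, Nfil3 was 0.00 with the pairs summed, and with 1 library left out Nfil3 ran from -0.28 to 0.13, Bhlhe40 from -0.28 to 0.02, Bhlhe41 from -0.37 to 0.20 and Rora from -0.15 to 0.09. For kidney minus liver, Hlf was -0.14 with total count scaling and -0.05 with the pairs summed, and with 1 library left out Hlf ran from -0.05 to 0.11 and Bhlhe40 from -0.47 to 0.13. For chow levels, Dbp heart minus kidney was -0.37 with total count scaling, -0.03 with the replicate block, -0.04 by limma-voom and -0.35 to 0.26 with 1 library left out, and Bhlhe40 heart minus kidney was -0.12 with total count scaling. Tef heart minus liver was 0.53 with total count scaling, 0.00 by limma-voom and -0.25 to 0.14 with 1 library left out, and Gm129 heart minus liver was -0.01 to 1.22 with 1 library left out. Members higher on chow numbered 3 (total count), 2 (limma-voom) and 1 to 2 (1 library left out) for heart minus liver, and 5 (total count) and 2 to 4 (1 library left out) for kidney minus liver. The cause of these shifts was not tested. Total count scaling put 29.6, 35.7, 31.4, 70.4 and 85.1% of calls higher, against 50.9, 55.6, 47.9, 51.7 and 54.3%, for the effect differences heart and kidney minus liver and for chow levels heart minus kidney, heart minus liver and kidney minus liver. Counts of 2 to 13 limit what the chow livers can show for Gm129 and Bhlhe41.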
